A study of Homo sapiens with 4 samples.

Results

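The genes described here are SOX17, HNF4A, FOXA1, APOA1, APOA2, APOB, TTR and AFP, 8 of the 23364 genes listed in the 4 count tables of a study of human blastoids. They were chosen by name as markers of endoderm and of hypoblast, the layer of the blastocyst also called primitive endoderm. The hypoblast later lines the yolk sac. The study measured single-cell RNA in the established embryonic stem cell line KhES1, grown on Matrigel in mTeSR-1 medium (hESC 1 and hESC 2). It also measured blastoids, which are stem cell aggregates meant to resemble a blastocyst, made from KhES1 aggregates embedded in a PNIPAAm-PEG hydrogel and kept in iBlastoid medium (blastoid 3 and blastoid 4). All samples come from this 1 cell line, and nothing in the labels says that the samples of a group were separate cultures, so p-values measure the spread between these samples, which may be technical. The titles of the blastoid samples carry D0 while their tables are named D9, so the description of each sample decided its group here.

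The tables held 14930662 to 18193164 UMIs, a UMI being a tag that counts 1 captured RNA molecule. A cell was a barcode with at least 500 genes, which left 2265, 3175, 2289 and 1951 cells in hESC 1, hESC 2, blastoid 3 and blastoid 4, or 9680 in all. The median depth was 5793, 4996, 6232 and 8828 UMIs per cell. The libraries of a group shared barcodes, 1035 in the blastoid pair and 1317 in the hESC pair, against 6 to 14 between groups. None of the 1035 had 500 genes in both blastoid tables, and 23 of the 1317 did in both hESC tables. All 1035 of the shared blastoid barcodes were cells in blastoid 4 and under 500 genes in blastoid 3. Scrublet, which scores barcodes against simulated doublets, called 73 of the 9680 barcodes (0.75%), and these were kept. In a library, fewer cells of a type and less RNA per cell cannot be told apart from a sum over cells.

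SOX17, HNF4A and FOXA1 are transcription factors of the endoderm. SOX17 acts early in hypoblast, in definitive endoderm, in primordial germ cells and in arterial endothelium. HNF4A and FOXA1 act on the secretory genes of visceral endoderm and liver. APOA1 and APOA2 are the main proteins of high-density lipoprotein and APOB is the scaffold of low-density lipoprotein. TTR carries thyroid hormone and retinol-binding protein, and AFP is the major serum protein of the fetus, and both are made by the yolk sac before the liver takes over.

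Upstream sequence was available in the RefSeq promoter table (GRCh38.p14) for 4 of the 8 genes, APOA2, AFP, HNF4A and FOXA1. The 250 bases before the start of APOA2 are shown because it was in more cells of blastoid 3 and of blastoid 4 than any other of the 8 genes. Those of FGB, the fibrinogen beta chain gene, are shown because its UMIs were found in just the 3 cells with 4 or more of the genes, described below. Each is on the strand of its gene, with matches to the motifs searched in capitals.
APOA2, chr1:161223629-161223878, minus strand: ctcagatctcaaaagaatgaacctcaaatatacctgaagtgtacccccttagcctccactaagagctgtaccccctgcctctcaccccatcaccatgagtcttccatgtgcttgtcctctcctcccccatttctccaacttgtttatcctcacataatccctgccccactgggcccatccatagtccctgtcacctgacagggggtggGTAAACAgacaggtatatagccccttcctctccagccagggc
FGB, chr4:154562730-154562979, plus strand: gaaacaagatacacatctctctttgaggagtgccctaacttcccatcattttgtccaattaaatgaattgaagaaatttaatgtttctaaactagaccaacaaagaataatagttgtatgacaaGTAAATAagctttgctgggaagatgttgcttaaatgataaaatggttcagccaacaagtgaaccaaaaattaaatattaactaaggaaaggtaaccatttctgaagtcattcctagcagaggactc
The motifs were searched on both strands as letters only. TGTTTAC, a FOXA motif, was found in APOA2 at -42 to -36 from the start, and in 2.98% of the 35114 promoter windows of this length. Its form TATTTAC was found in FGB at -126 to -120 (2.4% of windows). The motif of GATA factors, AGATAA (9.17% of windows), was in neither window shown. The HNF4 motif CAAAGTCCA (0.325% of windows) was in neither of them. A match of letters is not a bound site.

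The 3 transcription factors were close to the limit of detection in every sample. SOX17 had 7 UMIs in 4 cells of blastoid 3 and 9 UMIs in 4 cells of blastoid 4, or 0.424 and 0.493 CPM (UMIs per 1000000 UMIs of the library after TMM scaling). HNF4A had 1 UMI in 1 cell and FOXA1 had 2 UMIs in 2 cells, all in blastoid 3. The hESC tables do not list these genes, and the table of blastoid 4 does not list HNF4A, FOXA1 or TTR, and an unlisted gene was counted as 0. For the share of cells with a UMI, not of cells that express the gene, a count of 0 allows up to 0.132% in hESC 1, 0.094% in hESC 2 and 0.154% in blastoid 4 at 3 counts. The two-sided exact Clopper-Pearson 95% limits are 0.163%, 0.116% and 0.189%. FOXA2, the factor that usually marks endoderm beside FOXA1, was in none of the 4 tables.

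Of the 3 apolipoprotein genes, APOA2 had 82 UMIs in 61 cells of blastoid 3 and 78 UMIs in 43 cells of blastoid 4, 4.96 and 4.27 CPM, and is missing from both hESC tables. APOA1 had 0.947 CPM in hESC 1, 1.17 in hESC 2, 3.63 in blastoid 3 and 2.13 in blastoid 4, from 12, 18, 60 and 39 UMIs. APOB had 0.316, 0.195, 2.12 and 0.712 CPM in the same order, from 4, 3, 35 and 13 UMIs. For APOA1 and APOB both blastoid samples lay above both hESC samples, and blastoid 3 lay well above blastoid 4.

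The secreted carriers TTR and AFP gave a different picture. TTR had 3 UMIs in 2 cells of blastoid 3 and none elsewhere. AFP had 1.26 CPM in hESC 1, 2.27 in hESC 2, 1.45 in blastoid 3 and 0.766 in blastoid 4, and the groups overlapped. In hESC 1 and hESC 2 every AFP cell had 1 UMI, 16 and 35 cells, or 0.706% and 1.1% of cells. The share was 0.874% and 0.718% in blastoid 3 and blastoid 4, within the range of the stem cells.

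**Figure D1:**
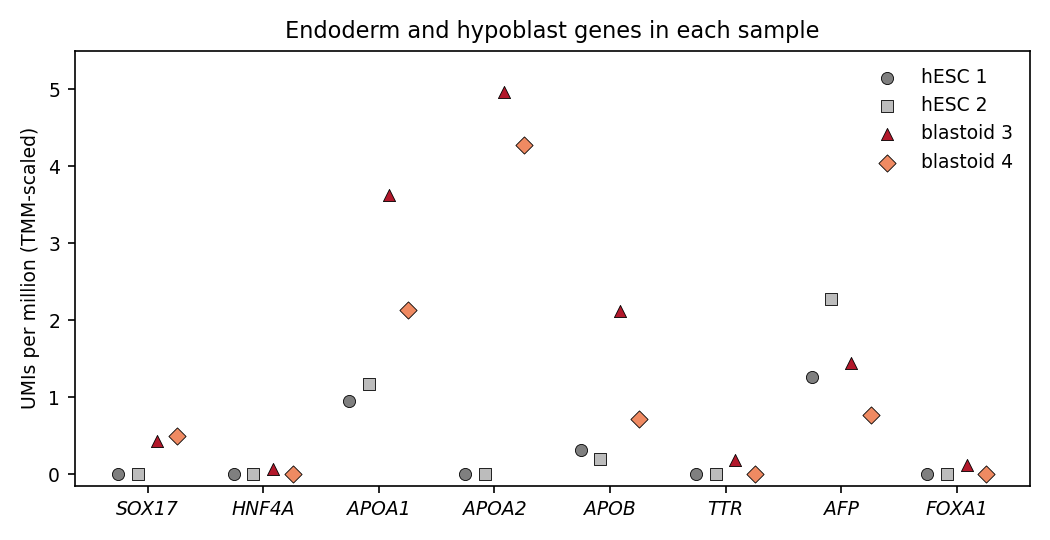
CPM after TMM scaling (y axis) of the 8 genes (x axis) in each of the 4 samples, 1 point per sample. APOA2 is at 4.96 and 4.27 in the blastoid samples and at 0 in the hESC samples, and AFP overlaps between the groups.

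Sums over cells were compared between blastoids and hESC with edgeR's quasi-likelihood test on 2 samples against 2, with Benjamini-Hochberg adjustment over all genes tested. Of 16368 genes tested, 8227 (50.3%) were called at an adjusted p under 0.05, 27.3% higher in blastoids and 23% lower. Only APOA1, APOA2, APOB and AFP had enough counts to be tested, and 3 of these 4 were called higher, against the 27.3% of all genes. These 4 passed the count filter partly through their blastoid counts, so the count does not speak for all 8. The count of called genes fell to 4424 without hESC 1 and to 5038 without hESC 2.

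APOA2 had an adjusted p of 0.000161 in edgeR. Its level over the blastoid cells was at least 14.1-fold above hESC if up to 2 barcodes per hESC table held it, and at least 43.1-fold against 3 counts over the group. APOA1 was higher by 1.43 ± 0.39 (SE, log2; edgeR adjusted p = 0.0186) and APOB by 2.45 ± 0.71 (adjusted p = 0.0235). AFP differed by -0.70 ± 0.46 (edgeR adjusted p = 0.242), a difference within the spread between samples.

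The APOA1 and APOB differences leaned on few cells and few libraries. Without the 3 cells described below, the edgeR difference of APOA1 was 0.87 (adjusted p = 0.0746) and that of APOB 1.61 (adjusted p = 0.0385). The edgeR adjusted p of APOA1 was 0.127 without hESC 1 and 0.0702 without hESC 2, and over its alternatives it ran from 0.00027 to 0.127. That of APOB was 0.0918, 0.135 and 0.125 without hESC 1, hESC 2 and blastoid 3, with a range of 0.000231 to 0.135 over its alternatives. Without blastoid 3, the AFP difference was -1.22 and passed the edgeR threshold (adjusted p = 0.0391, range 0.0391 to 0.859).

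How often a cell held these genes was then counted. At least 1 of the 8 was found in 31 of 2265 cells of hESC 1 (1.37%, exact Clopper-Pearson 95% interval 0.932 to 1.94) and in 56 of 3175 of hESC 2 (1.76%, 1.34 to 2.28). It was found in 121 of 2289 cells of blastoid 3 (5.29%, 4.41 to 6.28) and in 106 of 1951 of blastoid 4 (5.43%, 4.47 to 6.53). A total of exactly 1 UMI over the 8 genes made up 30, 56, 105 and 85 of these cells. Nearly all of these cells in the hESC samples, and most of them in the blastoid samples, therefore held a single UMI of the 8 genes.

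The mean share with at least 1 gene was 5.36% ± 0.104 (SD, n = 2) in blastoids and 1.57% ± 0.279 (SD, n = 2) in hESC, a difference of 3.79 percentage points. The exact two-sided permutation p was 0.33, the smallest that 2 samples against 2 can give. Cells with 1 gene were deeper than cells with none, with medians of 7047 against 6184 UMIs in blastoid 3 and 10357 against 8748 in blastoid 4. With cells under 2000 UMIs left out and the others thinned to 2000 UMIs, the difference was 1.02 points. That left 1830 of 2265 cells in hESC 1 and 2202 of 3175 in hESC 2. In blastoid 3 it left 2181 of 2289 cells and in blastoid 4 1909 of 1951. In all cells, with a gene counted as present from 2 UMIs on, the difference was 0.796 points.

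At least 2 of the 8 genes were found in 0 cells of hESC 1, 0 of hESC 2, 6 of blastoid 3 (0.262%, exact interval 0.0963 to 0.57) and 1 of blastoid 4 (0.0513%, 0.0013 to 0.285). The exact permutation p was again 0.33. Of these 7 cells, 3 held 4 or more of the genes and all 3 were in blastoid 3, while blastoid 4 had 0 of 1951.

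**Figure D2:**
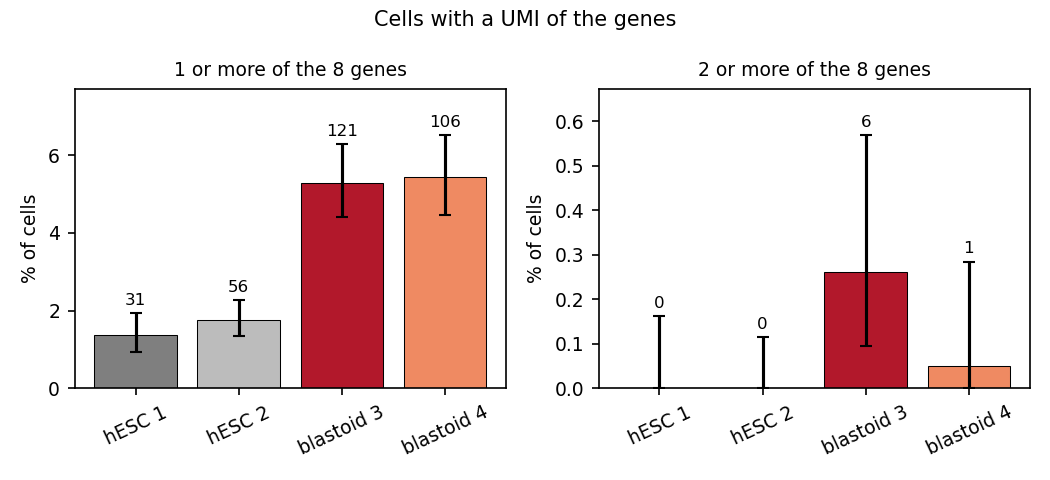
Percent of cells (y axis) with a UMI of 1 or more (left) and 2 or more (right) of the 8 genes in each sample, with exact Clopper-Pearson 95% intervals as bars and the number of cells above them. The left shares are 1.37% and 1.76% in hESC and 5.29% and 5.43% in blastoids; 6 of the 7 cells on the right are in blastoid 3.

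The 3 cells with 4 or more of the genes, called A, B and C here, each held several UMIs of APOA1 and of APOB. Cell A had 13 UMIs of APOA1, 4 of APOA2, 6 of APOB, 4 of AFP, 1 of TTR and 1 of FOXA1 among 5622 UMIs. Cell B had 11 of APOA1, 2 of APOA2, 6 of APOB and 2 of AFP among 3520 UMIs. Cell C had 7 of APOA1, 0 of APOA2, 9 of APOB, 2 of TTR and 1 of AFP among 3022 UMIs. These counts are what picked the cells out, and together they made up 69 of the 214 UMIs of the 8 genes in blastoid 3. The 3 cells had no doublet call, with Scrublet scores of 0.266, 0.306 and 0.155, which 1.79%, 1.35% and 9.13% of the cells of their sample reached. Their barcodes were not shared with the other blastoid table, which holds for every cell of blastoid 3.

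Genes that were not used to choose cells A, B and C were then read in them. FGB, which encodes a clotting protein made by liver and yolk sac, had 6, 3 and 5 UMIs in A, B and C and none in the other 2286 cells of blastoid 3. LINC00261, a long noncoding RNA gene next to FOXA2, had 4 UMIs in A and 2 in C and none elsewhere. Neither gene is listed in the tables of blastoid 4 or of hESC. The lipid transfer gene MTTP and the endocytic receptor gene CUBN had 1 UMI each in A and were in 3 and 5 other cells of blastoid 3. APOE had 28, 9 and 19 UMIs, 4600 CPM against 974 in the other cells, of which 2197 held it.

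A rule set after these cells were seen named genes that were in all 3 cells and whose level there, at its lower exact Poisson limit, was at least 8-fold above the other cells of blastoid 3. Beside FGB they included IGFBP6, APELA, KITLG, FN1, CKB, NENF, SMIM24, ELOVL7, SLC7A7, COL2A1, LGALS3 and PLAAT3. FN1, the matrix protein fibronectin, had 44, 28 and 19 UMIs in the 3 cells, or 7480 CPM of the total UMIs of these cells (exact Poisson interval 6020 to 9190), against 191 in the other cells. IGFBP6, an insulin-like growth factor binding protein, had 18, 5 and 6 UMIs, 2380 CPM (1600 to 3420) against 17.4. CKB, the brain creatine kinase, had 28, 18 and 14 UMIs, 4930 CPM (3760 to 6350) against 159. KITLG, the ligand of the KIT receptor, had 6, 2 and 2 UMIs, and APELA, an early embryonic peptide hormone, had 1, 5 and 2. These intervals cover counting error in 1 library, and there is no replicate check, since blastoid 4 has no such cell.

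The lists show what else was and was not counted in A, B and C. Of 26 yolk sac and liver secretory genes, 6 had a UMI in the 3 cells. Among the endoderm and hypoblast transcription factors, GATA4 and PRDM1 had 1 UMI each. HNF4A, SOX17, GATA6, HHEX and FOXA3 were at 0 there, as were the anterior endoderm genes CXCR4 and CER1. Of the gut epithelium genes, EPCAM and CDH1 had 14 and 6 UMIs, 1150 and 493 CPM against 116 and 115 in the other cells. KRT8 and KRT18 went the other way, at 329 and 164 CPM against 941 and 817. CLDN6 and CLDN4 were at 0, against 92.5 and 44.2 CPM. The 17 genes of that list summed to 2300 CPM in the 3 cells and 2220 in the other cells of blastoid 3. Of 14 endothelial genes, 0 had a UMI, against 217 CPM in the other cells of blastoid 3. Of 18 trophectoderm and amnion genes, 2 had one, with 20 UMIs, 17 of them from KRT19.

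The 18 mesoderm and mesenchyme genes summed to 1230 CPM in these cells and to 4440 CPM in the other cells of blastoid 3. HAND1, PITX1, LUM and DCN were at 0 in A, B and C, and COL3A1 had 1 UMI, against 709, 475, 518, 214 and 1020 CPM in the other cells of blastoid 3. TBX3 had 9 UMIs, 740 CPM (338 to 1400) against 327. A floor of 3 counts in these 12164 UMIs is 247 CPM, so genes below that level elsewhere, GATA6 (105) and DCN among them, could be missed. All 3 cells fell in cluster 1, which was named mesoderm/mesenchyme-like from its markers and led by PRRX1, KYNU and WNT5A. That name does not describe these 3 cells by their own counts. No cluster was hypoblast/endoderm-like.

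The other 4 cells with at least 2 of the genes did not share that pattern. Cell D of blastoid 3, with 15108 UMIs, had 5 of APOA1, 1 of APOA2 and 6 of APOC3, another lipoprotein gene. It also had 50 UMIs of CGA, the hormone alpha subunit of trophoblast, 56 of CYP19A1, the aromatase gene, 24 of GATA3, 18 of GATA2, 25 of TFAP2C and 14 of SDC1, and was in the trophectoderm/amnion-like cluster 2. FGB, APOB and AFP were at 0 in it. Cells E, F and G each had 1 UMI of 2 of the genes, with 2 to 8 UMIs each of HAND1 and PITX1, and none of FGB.

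**Figure D3:**
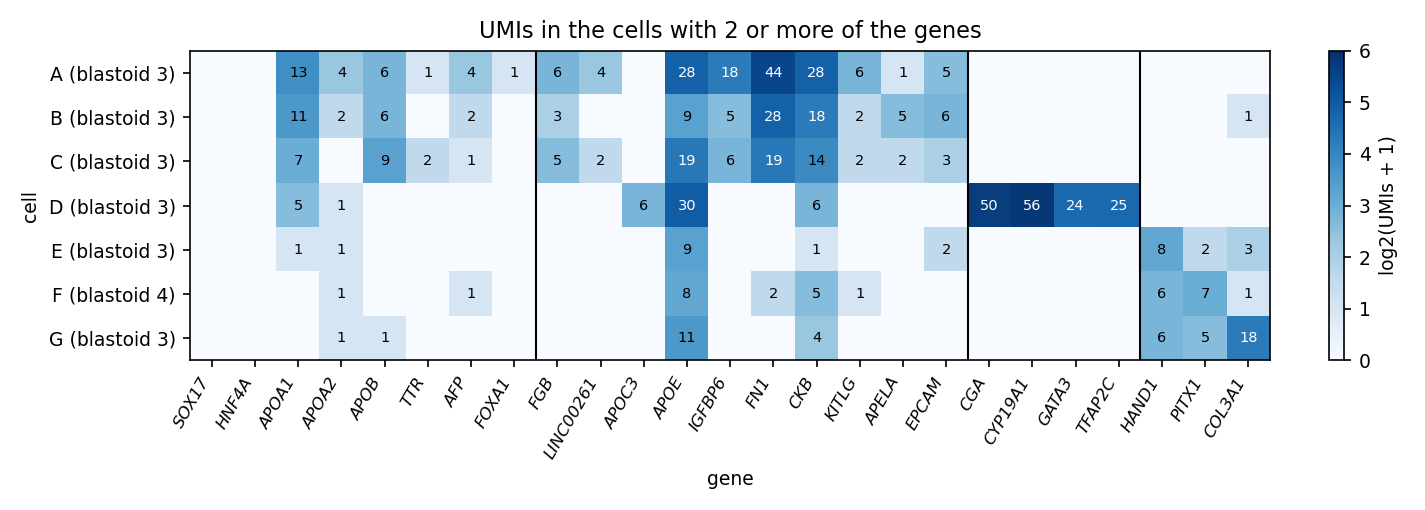
UMIs per cell (numbers and colour, log2 of UMIs + 1) of the 8 genes and of selected other genes (columns) in the 7 cells with 2 or more of the 8 genes (rows). Cells A, B and C share FGB, FN1 and IGFBP6, cell D carries CGA and CYP19A1, and cells E, F and G carry HAND1 and PITX1.

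None of the 8 SOX17 cells had a UMI of the other 7 genes, and none was called a doublet. Since 5.29% and 5.43% of blastoid cells held any of the 8 genes, 0 of 8 does not show a separation. Of these 8 cells, 5 were in cluster 12, which holds 17 cells, 5 of blastoid 3 and 12 of blastoid 4, and is led by SOST, MEF2C and LMO2. It had 9 mesoderm/mesenchyme and 8 endothelial markers in at least 10% of its cells and was left unnamed. The 5 cells had 14, 5, 14, 16 and 10 UMIs of KDR, the main VEGF receptor, and 11, 8, 15, 3 and 5 of NRP2, its co-receptor. ERG, an endothelial transcription factor, was in 4 of the 5, and CDH5, the adhesion molecule of endothelium, in 2. The endothelial genes PECAM1 and TEK were in 1 of the 5 each. CLDN5, SOX18, TIE1 and TAL1, also on the endothelial list, were at 0 in all 8 SOX17 cells. POU5F1 was at 0 in all 5.

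The other 3 SOX17 cells had 1 UMI of it each and carried pluripotency genes. POU5F1 had 22, 9 and 10 UMIs, TDGF1, a NODAL co-receptor, had 8, 2 and 1, and NODAL 5, 2 and 2. NANOG was in all 3, with 4, 1 and 2 UMIs. In 1 of them MESP1, an early mesoderm factor, had 8 UMIs. CXCR4, CER1, GSC and GATA4 were at 0 in all 8 SOX17 cells, EOMES had 1 UMI in 1 of them, and HHEX 3 UMIs in 2 cells of cluster 12. FOXA3 and GATA6, also on the endoderm list, each had 1 UMI in 3 of the 8 cells. SOX7, on that list too, had 4, 5, 1 and 3 UMIs in 4 of the 5 SOX17 cells of cluster 12. Of the 2286 cells of blastoid 3 other than A, B and C, FOXA3 was in 47, GATA6 in 924 and SOX7 in 68. Of the germ cell genes, NANOS3 and KIT were at 0 and TFAP2C had 1 UMI in 1 cell. PRDM1, a factor on both the germ cell and the endoderm lists, had 1, 3, 1 and 3 UMIs in 4 of the 5 SOX17 cells of cluster 12 and none in the other 4 SOX17 cells.

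**Figure D4:**
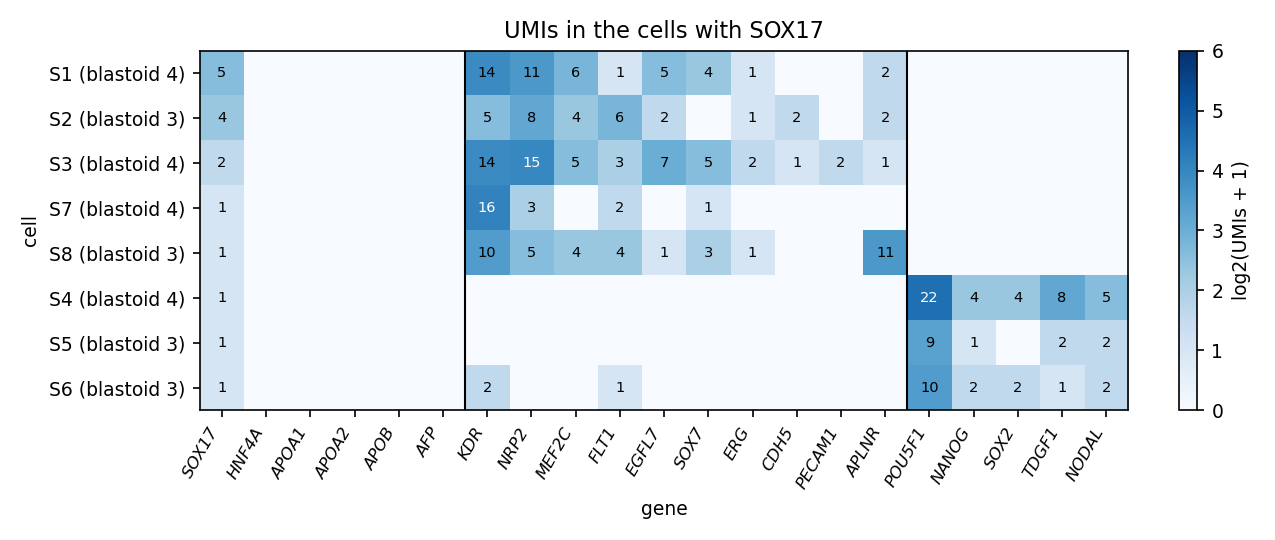
UMIs per cell (numbers and colour, log2 of UMIs + 1) of SOX17, 5 other genes of the set, endothelial and vascular genes and pluripotency genes (columns) in the 8 cells with SOX17 (rows). The 5 upper cells carry KDR and NRP2, and the 3 lower ones carry POU5F1, NANOG and NODAL.

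HNF4A and FOXA1 added no further cell of that kind. The 1 cell with HNF4A had none of the other 7 genes and had 10 UMIs of PITX1 and 3 of HAND1. The FOXA1 cell other than A was in cluster 2, with 12 UMIs of KRT19, 15 of KRT18 and 2 of GATA3. FGB and LINC00261 were at 0 in both.

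APOA2 was the gene most often found alone. It was the only gene of the set in 56 cells of blastoid 3 and 42 of blastoid 4. Of these, 10 had 3 or more UMIs, 1 in blastoid 3 and 9 in blastoid 4, and the highest held 10, 9 and 7. The cell with 10 UMIs was in cluster 2 and had 16 UMIs of GATA3, while those with 9 and 7 had 13 and 10 of HAND1 and 16 and 10 of PITX1. FGB, LINC00261 and APOC3 were at 0 in all 10.

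By cluster, APOA2 was most frequent in cluster 8, led by the early mesoderm genes MESP1 and MSGN1 and the neurotensin gene NTS, with 19 of 199 cells in blastoid 3 (9.55%, exact interval 5.85 to 14.5) and 6 of 40 in blastoid 4 (15%, 5.71 to 29.8). In the trophectoderm/amnion-like cluster 2, APOA2 was in 1.2% and 1.08% of cells. APOB was most frequent in cluster 9, led by TECRL, PLAT and NPNT, with 5 of 104 (4.81%) and 6 of 125 (4.8%), and in cluster 2 it was in 0.24% and 0.155%. APOA1 was in 1.37% and 2.64% of mesoderm/mesenchyme-like cells and in 0.48% and 0.464% of trophectoderm/amnion-like cells. The median depth of these classes was 6183.5 and 8412 UMIs for the former and 6288 and 9064 for the latter. The clusters were built from these cells, so the shares describe them and were not tested.

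**Figure D5:**
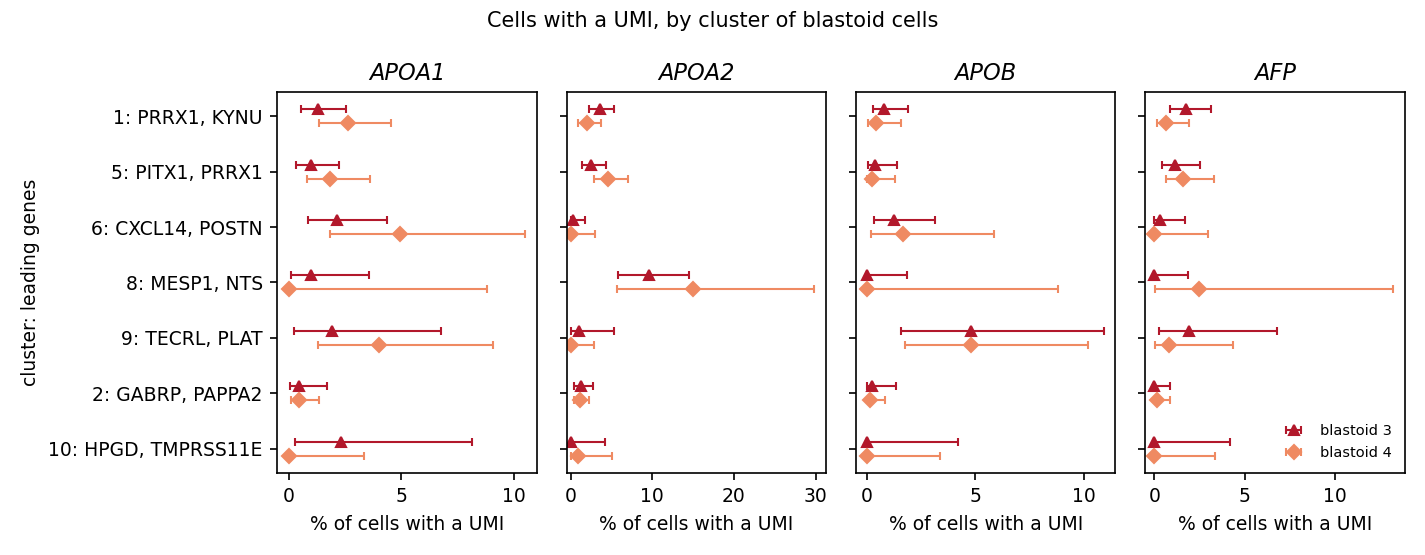
Percent of cells with a UMI (x axis, exact Clopper-Pearson 95% intervals) of APOA1, APOA2, APOB and AFP in the 7 clusters of blastoid cells with at least 40 cells in each sample (y axis), in blastoid 3 and blastoid 4. APOA2 is most frequent in cluster 8 (9.55% and 15%) and APOB in cluster 9 (4.81% and 4.8%).

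What cells with 1 of the genes alone expressed was compared with cells that had none of the 8, as sums per blastoid sample with the sample as a block (edgeR's quasi-likelihood test). These comparisons were added after the data had been seen. APOA1 was alone in 23 and 34 cells of blastoid 3 and blastoid 4, APOB in 13 and 12, and AFP in 17 and 13, against 2168 and 1845 cells with none. The number of other genes called was 174 of 14138 for APOA1 (1.23%), 286 of 14426 for APOA2 (1.98%), 214 of 13909 for APOB (1.54%) and 163 of 13978 for AFP (1.17%). The higher shares were 0.46%, 0.624%, 0.683% and 0.193% and the lower shares 0.771%, 1.36%, 0.856% and 0.973%, in that order. Without the sample block 0, 0, 0 and 10 genes were called, with DESeq2 and the block 20, 89, 52 and 25, and 969, 1630, 1135 and 904 had an unadjusted edgeR p under 0.05.

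No tested yolk sac or liver secretory gene and no tested endoderm transcription factor was called higher in APOA1, APOA2 or APOB cells. Of all genes, 0.46%, 0.624% and 0.683% were called higher in these comparisons, and only 11, 10 and 9 such factors were tested. At such rates lists this short would mostly hold no call, so the absence of calls does not set these lists apart from other genes. Cells with another gene of the set, A, B and C among them, were left out of these comparisons. Of 7 tested secretory genes, 0 were called higher in any of the 4 comparisons, and APOE was called lower in APOA2 cells (-0.42 ± 0.07) and in AFP cells (-0.56 ± 0.11). In AFP cells LHX1 was called higher, from 114 CPM against 2.98 in blastoid 4 but 7.24 against 11.6 in blastoid 3, and CER1 likewise from 80.1 against 0.454 in blastoid 4 and 0 against 4.31 in blastoid 3. The calls of LHX1 and CER1 therefore rest on blastoid 4.

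In cells with APOA1 alone, of 17 tested mesoderm and mesenchyme genes, 6 were called higher and 0 lower, with a list median of 0 against -0.1 over all genes. Of these 6, POSTN was at 727 against 331 CPM in blastoid 3 but 73 against 119 in blastoid 4. The others included LUM, which encodes a collagen-binding proteoglycan (0.95 ± 0.10, log2), and COL3A1 (0.67 ± 0.09). RELN, a secreted matrix glycoprotein, was at 115 and 76.1 CPM against 33.9 and 19.5 (1.86 ± 0.31, edgeR adjusted p = 1.14e-06), from 8 of 23 and 13 of 34 cells. Of 9 gut epithelium genes, 6 were called lower, EPCAM by 1.67 ± 0.25 and CDH1 by 1.69 ± 0.28 on the log2 scale. KRT7, a keratin of amnion and trophectoderm, was at 5.73 and 15.9 CPM against 52.7 and 99.6. MGP, also called higher, had 29 of its 32 UMIs in blastoid 4 in 1 cell. The other rises named by the rule included LMCD1, NPNT, SULF1, AQP1, GDF7, PRDM6 and HOXC8, and the other falls TINAGL1, GRHL1, CXCL12, ENC1, KCNK12, CLDN3, ZNF703, PLA2G2A and DHX33.

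In cells with APOB alone, of 17 mesoderm and mesenchyme genes, 7 were called higher and 0 lower, with LUM at 1.20 ± 0.13 and DCN, a small matrix proteoglycan, at 1.37 ± 0.19. GDF7, a BMP family ligand, was at 123 and 102 CPM against 14.3 and 11 (3.15 ± 0.43, edgeR adjusted p = 4.45e-10), from 6 of 13 and 7 of 12 cells. TECRL, a leading gene of cluster 9, was at 207 and 243 CPM against 48.3 and 39.5. TNNI1, a slow troponin gene, was at 115 and 212 against 27.8 and 33.5. POU5F1 was at 0 UMIs in these 25 cells, against 60.7 and 102 CPM in cells with none. Only 11% and 16.3% of the cells with none held POU5F1, so most cells lacked it there too. AC073174.1, also called higher, came from 1 cell in each sample.

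Cells with AFP alone shared the TECRL call, 195 and 183 CPM against 48.3 and 39.9 (2.11 ± 0.27, edgeR adjusted p = 1.27e-11), from 6 of 17 and 7 of 13 cells. FGF19, a secreted growth factor, was at 152 and 74.3 CPM against 37.6 and 24.8, and HAS2, the hyaluronan synthase gene, at 311 and 315 against 197 and 128. EPCAM was at 7.24 and 17.2 CPM against 124 and 205. CXCL14 and KRT7 were at 0 UMIs in all 30 cells. Most cells with none lacked them too: CXCL14 was in 15.6% and 8.83% of those cells and KRT7 in 13.5% and 25.3%. Of 18 mesoderm and mesenchyme genes 0 were called higher and 1, POSTN, lower.

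In cells with APOA2 alone, of 18 mesoderm and mesenchyme genes, 3 were called higher, MESP1, PITX1 and TBX3, and 9 lower, among them LUM (-3.21 ± 0.18) and COL3A1 (-3.17 ± 0.22). MESP1 was at 76 and 73 CPM against 25.9 and 9.16 (2.21 ± 0.31, edgeR adjusted p = 0.00023), from 11 of 56 and 5 of 42 cells, with 60% of its UMIs in blastoid 4 in 1 cell. SNAI1, a factor of the epithelial to mesenchymal transition, was at 40.3 and 45.9 CPM against 13.7 and 12.8 (1.70 ± 0.32, adjusted p = 0.00421), from 13 and 17 cells. CDX2, a caudal homeobox factor of trophectoderm and posterior mesoderm, was at 132 and 131 CPM against 65 and 50.1 (1.21 ± 0.17). HOXA-AS3, HOXC4, IGFBP6, CYP26A1, RBFOX1, SLC13A4 and PGF were also called higher, PGF with 78.9% of its UMIs in blastoid 3 in 1 cell. CYP19A1 was called higher too, but all 132 of its UMIs in blastoid 3 came from 1 cell, and CGA, also called, was at 584 against 5.17 CPM in blastoid 3 but 0 against 3.47 in blastoid 4. The difference between these 4 sets of cells was not tested, and the part that cluster membership and depth have in it was not tested. The median depth in blastoid 3 and blastoid 4 was 6184 and 8748 UMIs in cells with none. It was 6662 and 8771 in the APOA1 cells, 7045.5 and 11451.5 in the APOA2 cells, 9142 and 9881.5 in the APOB cells and 6205 and 13822 in the AFP cells.

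The wider endoderm lists were read from the comparison of blastoids with hESC. Of 18 endoderm and hypoblast transcription factors, 13 were tested, 6 called higher and 5 lower, with a median difference of 0.02 against 0.05 over all genes. GATA6, a hypoblast factor also active in mesoderm and amnion, was at 96.6 and 74.7 CPM in the blastoids and missing from hESC, at least 261-fold higher with up to 2 barcodes per hESC table. GATA4 was at 8.47 and 5.8 CPM, at least 21.7-fold higher on the same bound. FOXA3 fell by 1.25 ± 0.28 on the log2 scale (edgeR adjusted p = 0.0082), and OTX2 fell by 3.35 ± 0.18 (adjusted p = 1.17e-05). GATA6 was in 924 of the 2286 cells of blastoid 3 other than A, B and C.

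Of 20 hypoblast surface and basement membrane genes, 19 were tested, 17 called higher and 1 lower, with a median of 2.51. PDGFRA, a receptor that marks hypoblast and mesenchyme, was at 1.97 and 1.23 CPM in hESC and 56.8 and 37.2 in blastoids. The collagen genes COL4A1 and COL4A2 rose by 1.28 ± 0.19 and 1.24 ± 0.14. KIT fell by 1.15 ± 0.26 (edgeR adjusted p = 0.00814). Many of these genes are also made by mesenchyme, and 17 of 18 mesoderm and mesenchyme genes and 17 of 18 trophectoderm and amnion genes were called higher as well, while all 12 pluripotent genes were called lower.

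Of 26 yolk sac and liver secretory genes, 10 were tested, 3 called higher, 3 lower and 4 not called, with a median of -0.29. VTN, the gene of vitronectin, was at 3.03 and 2.96 CPM in blastoids and missing from hESC. SERPINA5, a protease inhibitor gene, rose by 2.75 ± 0.54 and RBP4, the retinol-binding protein gene, by 1.26 ± 0.40 (edgeR adjusted p = 0.0309). APOC1 fell by 0.75 ± 0.12, TMPRSS2 by 1.39 ± 0.34, and AMBP was at 1.74 and 1.69 CPM in hESC and at 0 in the blastoids. ALB, the albumin gene, had 1 UMI in blastoid 4, and FGA and FGG, the other fibrinogen chains, were in none of the 4 tables.

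The genes whose levels across cells were most like the sum of the 8 had weak correlations in both samples. Over 2289 and 1951 cells, Pearson's r was 0.28 and 0.105 for TM4SF18, 0.237 and 0.1 for CUBN and 0.086 and 0.089 for BEX1. TM4SF18 was in 3 and 5 cells and CUBN in 6 and 2. In counts this sparse such values are a description only.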

How the data were processed

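For each sample the authors deposited unnormalized UMI counts, listing genes by symbol against cell barcodes. The libraries were Chromium Next GEM Single Cell 3′ libraries per the labels' protocols. The submitters' processing notes name Cell Ranger and GRCh38, and the version is not given in the sources used here. The members and gene lists were chosen with earlier results of these data known. Cells had at least 500 genes, and doublets were called with Scrublet (scanpy 1.11.5, expected rate 6%) and kept. Cells were clustered without batch correction on 2000 variable genes, 30 principal components, 15 neighbours and Leiden resolution 0.5. A cluster took a class name with at least 3 markers in 10% of its cells and a lead of 2 markers, the lead being set after seeing the data. These names were rebuilt from markers.

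UMIs were summed per sample and tested with edgeR 4.0.16 (TMM, filterByExpr, adjusted p under 0.05). DESeq2 1.42.0 was an alternative. CPM in gene comparisons uses TMM-scaled library sizes, and in sets of cells it uses total UMIs. The SE is the log2 fold change divided by the square root of F. Shares have exact Clopper-Pearson intervals, sums exact Poisson intervals, and both, like the floor of 3 counts, cover counting error only. Unlisted genes were counted as 0. The test fixed for cells with 2 or more genes needed 10 such cells per sample and was not run; the comparisons of cells with 1 gene alone took its place, with its rule for named genes (the 10 largest changes called in each direction, of 1 sign in both samples and averaging 3 or more on the log2 CPM scale). Other named genes are the 8 members, listed genes and the 10 genes most correlated with the members' sum. On simulated counts for blastoid minus hESC, 48% of genes changed 2-fold and 96% changed 8-fold were recovered over 16166 genes. For cells with APOA2 alone against none, 24% and 64% were recovered over 14422 genes. Each simulation changed 50 genes per fold, drawn only from genes above a minimum expected count, with 1 fixed dispersion for all genes. These rates therefore need not hold for the real sums, where single cells can carry a gene's UMIs. Each printed promoter was copied from RefSeq (GRCh38.p14). Some genes the rules name are not reported here.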

Additional observations from a re-analysis of the deposited data

Results flagged for a closer look

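Barcodes under 500 genes were not used in the comparisons, and 4 UMIs of APOA2 were found in the 1318 such blastoid barcodes, among 508333 UMIs (7.87 CPM, exact Poisson interval 2.14 to 20.1). The 8076 such hESC barcodes had 0 among 3245255 UMIs, with an upper limit of 1.14 CPM, which is what drew attention to it. All 4 UMIs were in blastoid 3, in 4 barcodes. Of these, 2 are also barcodes of cells in blastoid 4, and 1 of those 2 held APOA2 there. Their part in the signal was not tested.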

How the results depend on the processing

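No paired analysis was possible because blastoid and hESC samples share no replicate numbers. The share with at least 1 gene differed by 3.5 points with 1000 genes per cell, 1.02 after thinning, 3.19 without shared barcodes and 0.796 from 2 UMIs on (3.6 to 3.99 leaving out a sample), higher in blastoids throughout. The share with at least 2 genes differed by 0.157 points, with an SD of 0.149 between the blastoid samples. Staying within a spread that wide says little. The difference was 0.0688 points after thinning, 0.0655 from 2 UMIs on and 0.131 without shared barcodes. It ran from 0.0513 to 0.262 points leaving out a sample. Genes called between blastoids and hESC numbered 4882 past a log2 change of 1 and 4424 to 10033 leaving out a sample (the lone sample of a group was then assumed to vary like the other group). With library size alone the median of all genes moved from 0.05 to 0.19. DESeq2 gave adjusted p = 0.0991 for APOA1 (log2 1.43) and 0.0793 for APOB (2.47). APOA2 stayed called in all 12 alternatives, APOA1 and APOB in 8 each. The cause of these changes was not tested. For cells with 1 gene alone, no replicate block gave 0, 0, 0 and 10 calls (APOA1, APOA2, APOB, AFP) and DESeq2 with the block 20, 89, 52 and 25. APOA2 calls numbered 466 without doublet calls and 495 with no filter, and AFP calls 107 with RLE factors. The planned test on cells with 2 or more genes and its alternatives were not run. The alternatives for cells with 1 gene alone, and the one without cells A, B and C, were chosen after seeing the data. SOX17, HNF4A and FOXA1 had 0 to 9 UMIs per sample, too few for the test.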
